A study of Mus musculus with 17 samples.

Results

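The 9 genes described here encode the chains of the interleukin-12 family and the soluble cytokines with which dendritic cells steer T and NK cells: Il12a, Il12b, Il23a, Il27, Ebi3, Il6, Il10, Il15 and Tnf. They were listed by name for that function, and all 9 were found among the 31091 gene identifiers of the count table. Polyadenylated RNA was sequenced from 17 samples of conventional dendritic cells, 9 of cDC1s and 8 of cDC2s. The cells came from the spleens of female C57BL/6JRj mice in which a subcutaneous B16-FLT3L tumor, which secretes the growth factor FLT3L, had expanded dendritic cells. Spleens of several mice were pooled in each experiment, so that a sample stands for a pool of animals.

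CD11c+ spleen cells were cultured for 6 h, in the presence of GM-CSF, with the uncleared medium of TC-1 lung tumor cells. WT medium came from TC-1 cells without a death gene, BimS medium from TC-1-iBimS cells that undergo apoptosis upon induction of BimS, and RIPK3 medium from TC-1-iRIPK3 cells that undergo necroptosis upon induction of RIPK3. All 3 lines had received the inducer cumate, so the WT groups carry that agent too. Both dying lines are engineered variants of a single tumor line, and the debris was given to bulk CD11c+ cells from which cDC1s (XCR1+CD8α+SIRPα-) and cDC2s (SIRPα+CD11b+XCR1-) were sorted only after culture. There were 3 samples in every group except cDC2s with RIPK3 medium, which had 2. The question put to the data is whether debris of apoptotic and of necroptotic cells alters the polarizing cytokine genes of either subset.

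Library totals lay between 16095159 and 21645289 counts, with a median of 18986002. The subsets carried their defining markers: the summed level of 6 cDC1 markers, among them Clec9a and Xcr1, was between 1180 and 1340 CPM (read counts per library size, scaled by TMM) in the 9 cDC1 samples and between 46.4 and 83.9 in the 8 cDC2 samples, while 6 cDC2 markers summed to between 1.83 and 3.76 CPM in cDC1s and between 268 and 337 in cDC2s. Single markers moved with the medium: in cDC1s Xcr1 rose by 0.44 with BimS medium and 0.57 with RIPK3 medium and Clec9a by 0.26 and 0.24, Tlr3 rose by 0.61 with BimS medium, and Itgae fell by 0.46 and by 0.84 and Wdfy4 by 0.18 and by 0.41 (adjusted p 5.67e-11 to 0.0276). In cDC2s with RIPK3 medium Clec10a fell by 0.98 and Cd209a by 0.50 and Clec4a4 rose by 0.63 (adjusted p 0.000558 to 0.0199), and with BimS medium Clec4a4 rose by 0.48 (adjusted p = 0.045). In sum, markers of T and NK cells stayed at or under 1.28 CPM, those of B cells at or under 1.48 and those of neutrophils at or under 4.19. Markers of plasmacytoid dendritic cells summed to 54.7 to 66.4 CPM in cDC1s and 172 to 215 in cDC2s, most of it Tcf4, which fell in cDC1s by 0.23 with either medium (adjusted p = 0.0485 and 0.0487), and Bst2 fell by 0.55 with RIPK3 medium in cDC2s (adjusted p = 0.0241). Among the T-cell markers Cd3g fell with BimS medium in cDC2s (adjusted p = 0.0341). Markers of adherent tumor cells summed to 4.34 to 6.28 CPM in cDC1s and 21.0 to 40.9 in cDC2s, where Cdh1 made up most of it, and of these Cald1 rose with RIPK3 medium in cDC1s (1.80, adjusted p = 0.0163). The part of these markers' cells in the results was not tested. Replicates differed by more than counting noise, most of all replicates 1 and 3 of cDC2s with WT medium, whose chi-square per degree of freedom was 29.

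Cytokines of the interleukin-12 family are pairs of chains. The chain p40, encoded by Il12b, joins p35 from Il12a to form IL-12, which drives IFN-γ production by T and NK cells, or p19 from Il23a to form IL-23, which sustains type 17 responses. The chain encoded by Ebi3 joins p28 from Il27 to form IL-27 and p35 to form IL-35, both of which can restrain T cells. IL-6 and TNF are inflammatory cytokines, IL-10 dampens antigen presentation, and IL-15, which is presented bound to its receptor chain, sustains NK cells and memory CD8+ T cells. The inflammatory genes among them are classical targets of NF-κB, together with AP-1, C/EBP and IRF factors that bind close to the start site.

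In the annotation of GRCm39, Il12b lies at chr11:44290808-44305505, Il12a at chr3:68597977-68605880, Il23a at chr10:128132008-128134621, Il27 at chr7:126188181-126194209, Ebi3 at chr17:56259270-56264023, Il6 at chr5:30218112-30224979, Il10 at chr1:130947581-130952711, Il15 at chr8:83054226-83129874 and Tnf at chr17:35418357-35420983. Il27 overlaps the protein-coding gene Apobr on the other strand, and Il12a, Ebi3, Il6 and Il15 each overlap a long noncoding RNA on the other strand. Whether reads were counted by strand is not given in the sources used here, so reads from such overlaps cannot be told apart.

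The promoters of Il6, the member that moved most clearly with the medium, and of Il12b, the gene of the shared p40 chain, are shown as the 250 bases before the RefSeq start site on GRCm38.p6. Il6 stands at chr5:30012864-30013113 and Il12b at chr11:44399813-44400062, both on the plus strand. Capitals mark matches to a simplified κB motif (GGGNNTTNC), a C/EBP motif (TTGCNNAA), an AP-1 motif (TGANTCA) and an IRF-type motif (GAAANNGAA), searched on both strands, and no matches overlap each other.
Il6: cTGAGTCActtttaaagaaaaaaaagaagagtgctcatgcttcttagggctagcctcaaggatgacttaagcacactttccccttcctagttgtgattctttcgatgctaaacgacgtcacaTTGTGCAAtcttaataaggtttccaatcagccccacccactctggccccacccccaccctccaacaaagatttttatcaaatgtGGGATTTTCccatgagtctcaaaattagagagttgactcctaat
Il12b: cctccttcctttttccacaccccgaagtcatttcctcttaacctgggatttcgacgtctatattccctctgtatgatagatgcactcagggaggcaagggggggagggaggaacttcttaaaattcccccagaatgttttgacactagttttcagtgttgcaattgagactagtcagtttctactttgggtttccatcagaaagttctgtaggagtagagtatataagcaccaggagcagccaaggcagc

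The Il6 window holds an AP-1 match from 249 to 243 bases before the start, a C/EBP match on the minus strand from 128 to 121 bases and a κB match from 44 to 36 bases before it. The Il12b window holds none of the 4 strings as spelled here, which says only that these letters are not in these 250 bases. Of the 5 members matched in the promoter table, Ebi3 has a κB match from 44 to 36 bases before the start, and Tnf and both windows of Il12a have none of the 4. Among all 32851 promoter windows of the same length, 13.0% hold the κB string, 9.56% the C/EBP string, 6.75% the AP-1 string and 7.13% the IRF-type string. Il23a, Il27, Il10 and Il15 were not matched.

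Averaged over the 17 samples, 5 of the 9 genes reached 1 CPM and 4 lay near the detection limit. Per kilobase of exon, the mean level in cDC1s was 22.8 CPM for Il6, 10.1 for Ebi3, 5.04 for Il12b, 2.30 for Tnf and 2.16 for Il15. In cDC2s it was 18.7 for Il6, 8.50 for Ebi3, 1.60 for Il12b, 2.06 for Tnf and 0.119 for Il15. The chains that Il12b and Ebi3 need as partners were far lower in both subsets: per kilobase Il12a stood at 0.0316 CPM in cDC1s and 0.0325 in cDC2s, Il23a at 0.0601 and 0.102, and Il27 at 0.0499 and 0.0319. Il10 stood at 0.0863 and 0.0288 CPM per kilobase.

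**Figure D1:**
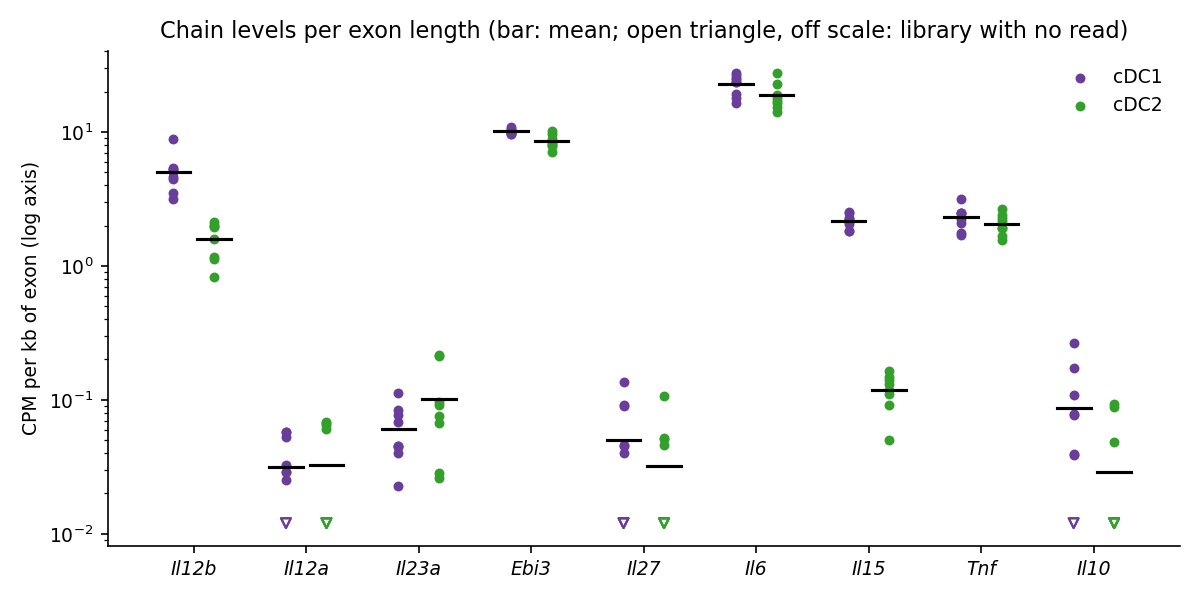
Levels of the 9 genes in CPM per kilobase of exon on a log axis, 1 point per library, for 9 cDC1 and 8 cDC2 libraries, with bars at the mean and open triangles for libraries without a read. Il12b and Ebi3 lie far above Il12a, Il23a and Il27 in both subsets, and Il15 shows the widest gap between cDC1s (2.16) and cDC2s (0.119).

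Transcripts of the p35 chain were nearly absent. Il12a had 0, 2 and 1 reads in cDC1s with WT medium, 1, 2 and 1 with BimS medium and 2, 0 and 1 with RIPK3 medium. In cDC2s it had 0, 2 and 2 reads with WT medium, 2, 0 and 2 with BimS medium and 0 and 0 with RIPK3 medium. No library exceeded 2 reads, which is within the 3 counts that a count of 0 allows, so no fold change is given and a difference between media was not detectable at this depth. The intervals and limits from reads cover counting error alone, since the reads carry no molecular identifiers.

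Il27, which encodes p28, was as low. It had 2, 0 and 1 reads with WT medium, 1, 0 and 1 with BimS medium and 2, 3 and 0 with RIPK3 medium in cDC1s. In cDC2s the counts were 1, 1 and 0, then 0, 0 and 2, then 0 and 1. Every group lay at or under 3 counts per library.

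Il23a, which encodes p19, was read in all 17 libraries but never in more than 8 reads. In cDC1s the counts were 2, 5 and 2 with WT medium, 2, 4 and 3 with BimS medium and 1, 2 and 3 with RIPK3 medium, and the groups overlapped. In cDC2s they were 4, 3 and 4 with WT medium, 8, 3 and 8 with BimS medium and 1 and 1 with RIPK3 medium, so both RIPK3 libraries lay below the other 6. The difference in cDC2s did not pass the test (edgeR adjusted p = 0.44 for RIPK3 against WT and 0.408 for RIPK3 against BimS).

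Il10 had 0, 0 and 5 reads in cDC1s with WT medium, 2, 3 and 1 with BimS medium and 1, 2 and 6 with RIPK3 medium. In cDC2s it had no read in the 3 libraries with WT medium, 2, 0 and 0 reads with BimS medium and 1 and 2 with RIPK3 medium. It was below the filter for testing in cDC2s, where 8 of the 9 genes were tested, and was not called in cDC1s.

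**Figure D2:**
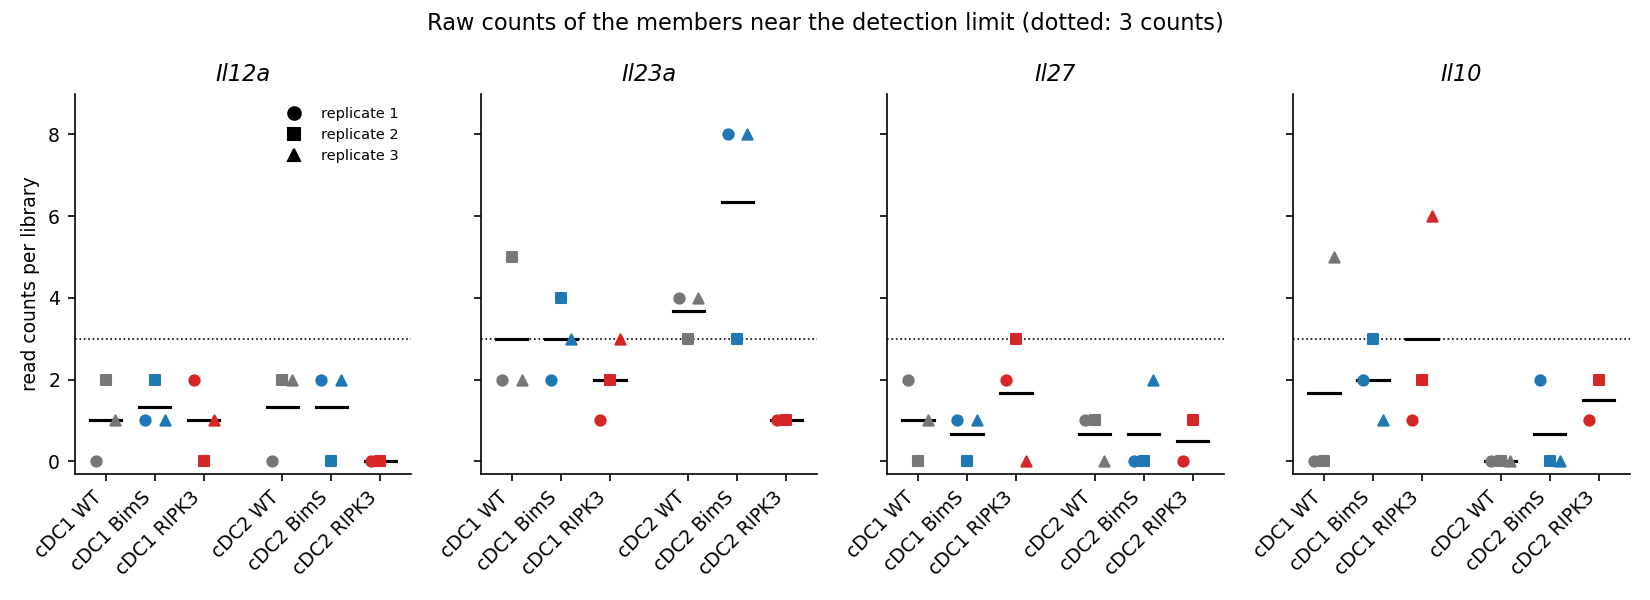
Raw read counts per library of Il12a, Il23a, Il27 and Il10 in the 6 groups, with bars at the mean and a dotted line at 3 counts. Il12a and Il27 never pass the line, Il23a reaches 8 in cDC2s with BimS medium, and Il10 reaches 6 in cDC1s with RIPK3 medium.

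The balance of chains that pair was computed from reads summed over the libraries of a subset and divided by exon length, with exact 95% intervals. In cDC1s, 2440 reads of Il12b stood against 10 of Il12a, a per-kilobase ratio of 158 (85.6 to 329). In cDC2s, 614 reads stood against 8, a ratio of 49.6 (25.0 to 115). Against Il23a, Il12b had a ratio of 83.3 (55.8 to 130) in cDC1s and 15.7 (11.0 to 23.2) in cDC2s, and the intervals of the ratios to Il12a and to Il23a overlapped in cDC1s and not in cDC2s, where the former rests on 8 reads of Il12a. Within each medium of cDC2s they overlapped. By medium, the ratio of Il12b to Il23a in cDC2s was 18 (9.89 to 36.6) with WT medium, 9.79 (6.12 to 16.6) with BimS medium and 59.4 (16.1 to 495) with RIPK3 medium, the last from 2 reads of Il23a.

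Ebi3 exceeded its partners as widely. The ratio of Ebi3 to Il27 was 202 (110 to 422) in cDC1s and 269 (115 to 830) in cDC2s. That of Ebi3 to Il12a, the pair of IL-35, was 321 (174 to 670) in cDC1s and 267 (135 to 619) in cDC2s. These are transcript ratios and hold no measure of secreted protein.

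Il6, the most abundant of the 9 per exon length, responded differently in the subsets. In cDC1s its level was 57.4, 64.7 and 60.5 CPM with WT medium, 43.6, 46.5 and 39.6 with BimS medium and 57.4, 66.4 and 61.4 with RIPK3 medium. All 3 BimS libraries lay below all 6 others, and the WT and RIPK3 groups overlapped. In cDC2s it was 39.8, 37.2 and 34.1 CPM with WT medium, 43.3, 41.4 and 45.3 with BimS medium and 66.5 and 55.6 with RIPK3 medium. There the 3 groups did not overlap, with WT lowest and RIPK3 highest.

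In cDC1s, Il6 fell with BimS medium by 0.49 on the log2 scale (SE 0.07, edgeR adjusted p = 5.81e-07), so that it fell by 28.9% from WT medium. With RIPK3 medium it differed from WT by 0.01 (95% interval -0.12 to 0.15, adjusted p = 0.935), and it was 1.42-fold higher with RIPK3 than with BimS medium (log2 difference 0.51, SE 0.07, adjusted p = 4.27e-06). In bulk samples such as these, fewer cells that express a gene and less RNA per cell cannot be told apart. In cDC2s, Il6 rose 1.65-fold with RIPK3 medium (log2 difference 0.72, SE 0.11, adjusted p = 0.000106). Its difference of 0.22 with BimS medium in cDC2s (SE 0.10) had an adjusted p of 0.21, and with the replicate number as a block 0.23 and 0.00166. RIPK3 exceeded BimS medium in cDC2s by 0.50 (SE 0.11, adjusted p = 0.0429), but this call was lost when any 1 of the 5 libraries in it or replicate 2 of WT was left out (adjusted p 0.0638 to 0.514).

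The difference between the subsets in their Il6 response passed a direct test. BimS against WT in cDC1s less the same in cDC2s came to -0.72 (SE 0.12, adjusted p = 0.000826), and RIPK3 against WT came to -0.72 (SE 0.12, adjusted p = 0.00116). With limma on unnormalized log2 counts both interactions missed the threshold, at -0.69 (adjusted p = 0.051) and -0.65 (adjusted p = 0.095). The step from BimS to RIPK3 medium was 0.51 in cDC1s and 0.50 in cDC2s, and the difference of these steps was 0.00 (95% interval -0.25 to 0.26). With WT medium cDC1s held 1.63-fold more Il6 than cDC2s (log2 difference 0.71, SE 0.08, adjusted p = 3.33e-08). The levels thus stood in the order of 61.7 ± 4.48 CPM in cDC1s with RIPK3 medium (mean ± SD, n = 3), 61.1 ± 7.66 in cDC2s with RIPK3 medium (n = 2), 60.9 ± 3.68 in cDC1s with WT medium (n = 3), 43.3 ± 1.93 in cDC2s with BimS medium (n = 3), 43.2 ± 3.48 in cDC1s with BimS medium (n = 3) and 37.0 ± 2.88 in cDC2s with WT medium (n = 3). Neighbors in this order overlapped except at the gap between 60.9 and 43.3 CPM.

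**Figure D3:**
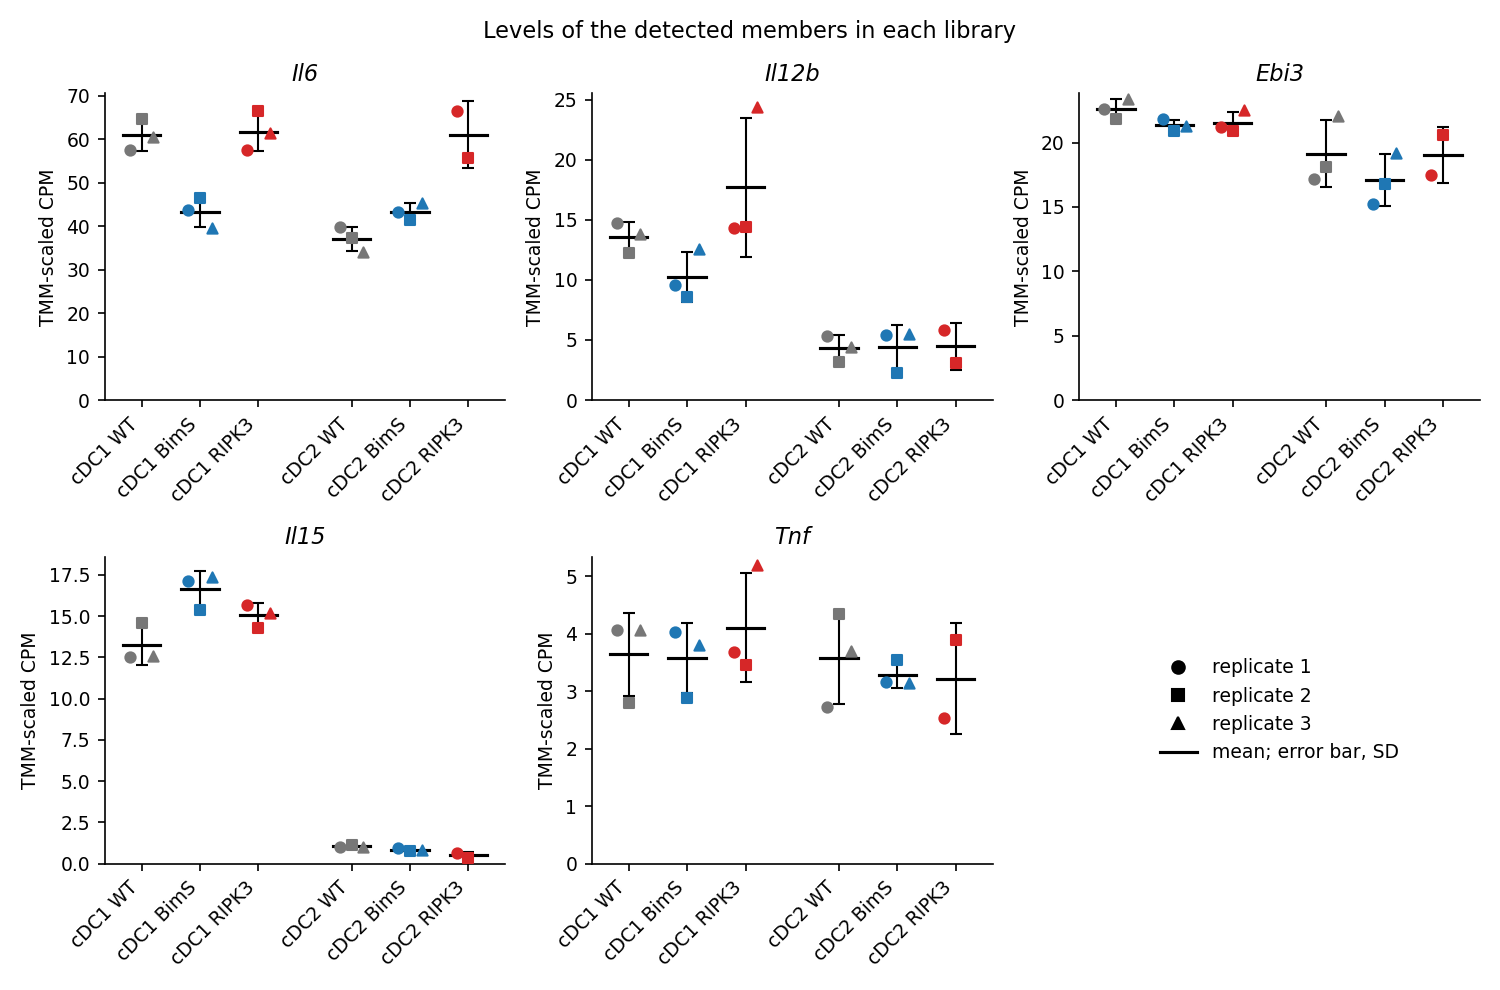
TMM-scaled CPM of Il6, Il12b, Ebi3, Il15 and Tnf in each library of the 6 groups, with the mean and SD. Il6 in cDC1s drops only in the 3 BimS libraries (39.6 to 46.5), whereas in cDC2s it is highest in the 2 RIPK3 libraries, and Il15 lies between 12.5 and 17.4 in cDC1s and at or below 1.14 in cDC2s.

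Cd14 encodes a co-receptor for bacterial lipopolysaccharide of monocytes and macrophages. Within each subset its group means stood in the same order of media as those of Il6. The mean level of Cd14 in cDC1s was 137 CPM with WT medium, 96.0 with BimS medium and 156 with RIPK3 medium, and in cDC2s it was 33.6, 46.4 and 61.2. In cDC2s Cd14 rose with BimS medium (log2 difference 0.46, adjusted p = 0.0233) and with RIPK3 medium (0.87, adjusted p = 0.000227). In cDC1s no difference of Cd14 was called. It was -0.51 for BimS against WT (adjusted p = 0.364), 0.185 for RIPK3 against WT (0.766) and 0.69 for RIPK3 against BimS (0.301). The list of 9 markers of macrophages and monocytes that holds Cd14 summed to 126 to 182, 86.3 to 129 and 123 to 197 CPM in cDC1s with WT, BimS and RIPK3 medium, and to 47.2 to 62.8, 57.5 to 71.9 and 68.6 to 87.9 CPM in cDC2s. Without Cd14 the other 8 summed to 8.80 to 10.8, 5.14 to 5.36 and 4.25 to 6.16 CPM in cDC1s and to 17.2 to 29.0, 18.1 to 20.7 and 14.9 to 19.2 CPM in cDC2s. None of the 9 was at 0 in a whole group, C1qa, C1qb and C1qc averaged at most 1.18 CPM in any group, and C1qc fell with BimS medium in cDC1s, from 0.662 to 0.218 CPM (log2 difference -1.61, adjusted p = 0.0343). Fcgr1, which encodes a high-affinity Fc receptor of macrophages, fell in cDC1s from 5.01 CPM to 2.44 with BimS medium and 1.15 with RIPK3 medium (log2 differences -1.03 and -2.12, adjusted p = 6.8e-05 and 7.15e-10) and in cDC2s with RIPK3 medium (-0.65, adjusted p = 0.0128), where Cd14 rose. The part of such cells in the Il6 result was not tested.

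Il12b, the gene of p40, was 3-fold higher in cDC1s than in cDC2s and varied among replicates. Its level in cDC1s was 14.7, 12.2 and 13.8 CPM with WT medium, 9.59, 8.58 and 12.6 with BimS medium and 14.3, 14.4 and 24.4 with RIPK3 medium. Replicate 3 of RIPK3 stood alone at the top, all 3 RIPK3 libraries lay above all 3 BimS libraries, and the WT group overlapped with both. In cDC2s the level was 5.33, 3.20 and 4.40 CPM, then 5.42, 2.28 and 5.51, then 5.85 and 3.09, with replicate 2 lowest in each medium and complete overlap of the groups.

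No difference of Il12b between media passed edgeR's test without a block in cDC1s, while DESeq2 called RIPK3 against BimS, and limma on unnormalized counts called that and BimS against WT. It was -0.40 for BimS against WT (SE 0.26, adjusted p = 0.464), 0.37 for RIPK3 against WT (SE 0.25, adjusted p = 0.437) and 0.78 for RIPK3 against BimS (SE 0.26, adjusted p = 0.207). With the replicate number as a block, which takes out what same-numbered libraries share, all 3 passed: -0.40 (adjusted p = 0.0135), 0.36 (0.0141) and 0.77 (1.88e-05). Without replicate 3 of RIPK3, the fit without a block gave -0.41 for BimS against WT (adjusted p = 0.0036), 0.07 for RIPK3 against WT (0.769) and 0.48 for RIPK3 against BimS (0.00653). In cDC2s the differences of Il12b were 0.00 (95% interval -0.80 to 0.81), 0.04 (-0.86 to 0.94) and 0.04 (-0.87 to 0.94), intervals too wide to exclude the sizes seen in cDC1s. Between the subsets, Il12b differed by 1.59 across media (SE 0.20, adjusted p = 5.46e-06) and by 1.63 with WT medium (SE 0.33, adjusted p = 0.00118).

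Il15 was read mainly in cDC1s. There it stood at 12.5, 14.6 and 12.6 CPM with WT medium, 17.1, 15.4 and 17.4 with BimS medium and 15.7, 14.3 and 15.2 with RIPK3 medium. All 3 BimS libraries exceeded all 3 WT libraries, and the RIPK3 group overlapped with both. In cDC2s, 19, 20 and 19 reads gave 0.974, 1.14 and 1.02 CPM with WT medium, 15, 15 and 14 reads gave 0.913, 0.761 and 0.829 with BimS medium, and 10 and 6 reads gave 0.636 and 0.350 with RIPK3 medium. The 3 groups of cDC2s did not overlap, in the order WT, BimS, RIPK3.

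In cDC1s Il15 rose by 0.33 with BimS medium (SE 0.09, adjusted p = 0.0131, 1.25-fold), a call lost without replicate 1 or 3 of WT or replicate 1 or 3 of BimS (adjusted p 0.0536 to 0.0849). Its difference with RIPK3 medium was 0.18 (95% interval -0.01 to 0.37, adjusted p = 0.236). In cDC2s the difference with RIPK3 medium was -1.08 (SE 0.41, adjusted p = 0.138) and with BimS medium -0.33 (SE 0.32, adjusted p = 0.677). The interaction for RIPK3 against WT was 1.26 (SE 0.35, adjusted p = 0.087), and that for BimS against WT 0.65 (SE 0.28, adjusted p = 0.467). Both limma fits called Il15 for the interaction of RIPK3 against WT. Across media, Il15 was 17.7-fold higher in cDC1s (log2 difference 4.15, SE 0.12, adjusted p = 1.79e-23). Beside these few reads in cDC2s, the cDC1 markers other than Wdfy4 summed to 9.54 to 15.1 CPM in cDC2s and 627 to 787 in cDC1s. The part of cDC1s within the cDC2 gate was not tested.

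No difference of Ebi3 between media passed the test. In cDC1s it stood at 22.6, 21.8 and 23.4 CPM with WT medium, 21.8, 20.9 and 21.3 with BimS medium and 21.2, 20.9 and 22.5 with RIPK3 medium. In cDC2s it stood at 17.2, 18.1 and 22.1, then 15.2, 16.8 and 19.2, then 17.5 and 20.6 CPM. The media overlapped within each subset, and the 6 differences lay between -0.17 and 0.17 on the log2 scale (adjusted p 0.53 to 0.995). Their 95% intervals reached from -0.24 to 0.17 in cDC1s and from -0.42 to 0.45 in cDC2s. Across media Ebi3 was 1.18-fold higher in cDC1s (log2 difference 0.24, SE 0.06, adjusted p = 0.00093).

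Tnf was low, and edgeR called no difference between groups. Its level in cDC1s was 4.06, 2.80 and 4.06 CPM with WT medium, 4.03, 2.88 and 3.81 with BimS medium and 3.68, 3.45 and 5.19 with RIPK3 medium. In cDC2s it was 2.72, 4.34 and 3.70, then 3.16, 3.55 and 3.14, then 2.54 and 3.90 CPM. All groups overlapped, no difference between media or subsets passed edgeR's test (adjusted p 0.396 to 0.99), limma on unnormalized counts called it higher in cDC1s across media (0.32, adjusted p = 0.0362), and the 95% intervals of the media differences extended from -0.64 to 0.57.

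Of the 9 genes, 2 were called for BimS against WT in cDC1s, Il6 and Il15, where 13.2% of all genes tested were called. For RIPK3 against WT in cDC1s, edgeR without a block called 0, where 16.5% of all genes were called. It had 0 at an unadjusted p under 0.05, and DESeq2 and both limma fits also called 0. For RIPK3 against BimS 1 was called in cDC1s, where 4.15% were called. With the replicate number as a block, edgeR called Il12b in addition in each of these comparisons. There 3486, 4098 and 1730 of the 19513 genes tested were called. In cDC2s 0 of the 8 tested were called for BimS against WT without a block, with 1 at an unadjusted p under 0.05 and 0 by the other tools. For RIPK3 against WT 1 was called, and for RIPK3 against BimS 1. In the same order, 7.01%, 7.21% and 0.379% of all genes were called. With the block Il6 was called for BimS against WT in cDC2s as well, where 4103 of 19239 genes were called. Counts this small describe single genes and not the family. For the interactions, 1 of 9 was called for BimS against WT and 1 for RIPK3 against WT, Il6 in both, where 0.870% and 1.14% of all genes were called. For RIPK3 against BimS 0 were called, also by DESeq2 and limma and at an unadjusted p under 0.05, where 0.0314% were called. Between subsets, 3 were called with WT medium and 4 across media, where 46.2% and 59.8% were called. The call of Il6 across media (edgeR adjusted p = 0.0492) was lost with the block and with RLE factors. With the block Ebi3 was called with WT medium as well.

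**Figure D4:**
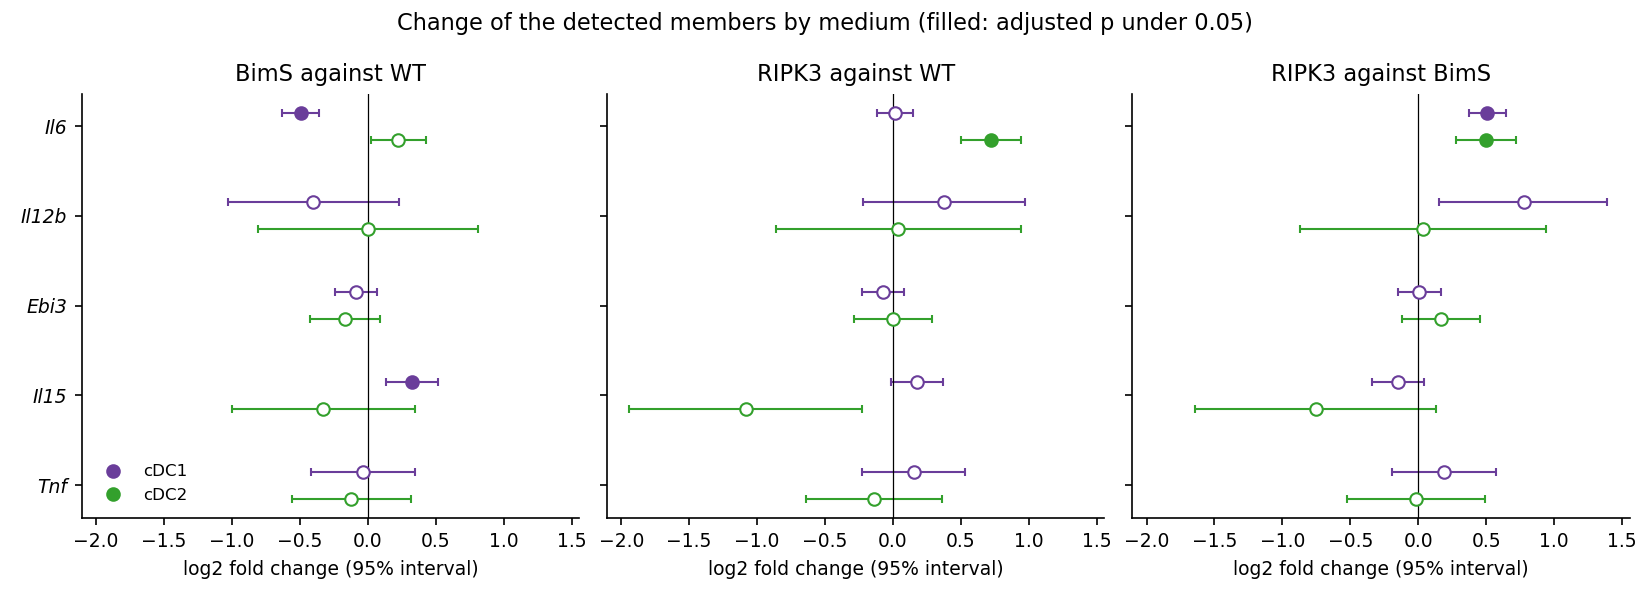
Log2 fold changes with 95% intervals of the 5 detected genes in the 3 pairs of media, in cDC1s and cDC2s, filled where the adjusted p was under 0.05. For Il6, BimS against WT lies at -0.49 in cDC1s and 0.22 in cDC2s, whereas RIPK3 against BimS lies near 0.50 in both.

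Of 13 genes for the receptors of these cytokines, 12 were tested in cDC1s and 13 in cDC2s. Between the subsets 10 of the 12 tested were called with WT medium and 11 across media, where 46.2% and 59.8% of all genes were called. Il12rb2, a signaling chain of the IL-12 receptor, stood at 105 ± 16.2 CPM in cDC2s with WT medium and 6.92 ± 0.846 in cDC1s (SD, n = 3 each), whereas its partner Il12rb1 averaged at most 0.166 CPM in any group. In cDC1s 2 receptors rose and 2 fell with BimS medium, and 2 rose and 2 fell with RIPK3 medium, where 7.31% and 8.34% of all genes rose and 5.89% and 8.19% fell. Tnfrsf1a, the main TNF receptor, rose by 0.24 with BimS and 0.35 with RIPK3 medium in cDC1s (adjusted p = 0.00134 and 3.41e-06). Il6ra, which binds IL-6, fell by 0.25 and by 0.34 (adjusted p = 0.0242 and 0.00214), while its signal transducer Il6st rose by 0.23 with BimS medium (adjusted p = 0.00989). Il2rb, which carries IL-15 signals, rose by 1.16 with RIPK3 medium from 0.829 to 1.84 CPM (adjusted p = 0.00508), and Il10ra fell by 0.16 and by 0.14. In cDC2s Tnfrsf1a rose with RIPK3 medium by 0.68 (adjusted p = 0.000505) as the only receptor called, against 3.93% of all genes that rose and 3.28% that fell, and 0 were called with BimS medium by edgeR, with 2 at an unadjusted p under 0.05. The median receptor changed by 0.05 and -0.07 in cDC1s and by 0.08 and 0.07 in cDC2s, beside medians of all genes between -0.02 and 0.00.

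Of 28 other cytokine genes of dendritic and T cells, 24 were in the table and 18 were tested in cDC1s and 17 in cDC2s. Clcf1, a cytokine of the IL-6 family, rose in both subsets and with both media, by 0.33 and 0.47 in cDC1s (adjusted p = 0.000419 and 1.05e-06) and by 0.39 and 0.69 in cDC2s (adjusted p = 0.0121 and 0.000146). Osm, of the same family, rose with RIPK3 medium by 0.71 in cDC1s and 0.63 in cDC2s (adjusted p = 0.00277 and 0.00113). Tnfsf9, the ligand of 4-1BB, fell in all 4 comparisons, by 0.55 and by 0.77 in cDC1s and by 1.01 and by 0.82 in cDC2s (adjusted p 0.00215 to 0.035). Tnfsf4, which encodes OX40L, rose by 0.88 with BimS medium in cDC1s (adjusted p = 0.0268). Tgfb1 rose by 0.52 and Ltb fell by 0.86 with RIPK3 medium in cDC2s (adjusted p = 0.000455 and 0.00847). With BimS medium 2 rose and 1 fell in cDC1s (7.31% and 5.89% of all genes), and 1 rose and 1 fell in cDC2s (3.80% and 3.21%). With RIPK3 medium 2 rose and 1 fell in cDC1s (8.34% and 8.19% of all genes), and 3 rose and 2 fell in cDC2s (3.93% and 3.28%). Their median was 0.03 and 0.19 in cDC1s and 0.21 and 0.02 in cDC2s.

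All 24 transcription factor genes were tested. In cDC1s 6 rose and 7 fell with BimS medium, where 7.31% of all genes rose and 5.89% fell, and 7 rose and 6 fell with RIPK3 medium, where 8.34% rose and 8.19% fell. In cDC2s 5 rose and 2 fell with BimS medium (3.80% and 3.21% of all genes), and 6 rose and 2 fell with RIPK3 medium (3.93% and 3.28%). Cebpb, which encodes C/EBPβ, rose in both subsets, from 27.2 to 69.6 and 91.6 CPM in cDC1s and from 33.3 to 92.9 and 119 CPM in cDC2s (log2 differences 1.36, 1.75, 1.48 and 1.84, adjusted p 0.000322 to 0.0115). Prdm1, which encodes the repressor Blimp-1, rose by 1.21 and 1.38 in cDC1s and by 0.78 and 0.68 in cDC2s. Maf, an activator of Il10, rose by 1.40 and 1.28 in cDC1s and by 0.76 with BimS medium in cDC2s. Irf8, needed for cDC1 identity and for full transcription of Il12b, fell in cDC1s from 310 to 185 and 177 CPM (by 0.75 and by 0.82, adjusted p = 3.78e-12 and 4.09e-13). Irf4, a factor of cDC2s, fell in cDC2s by 1.16 and by 1.52, and Bcl6 fell in both subsets and with both media, by 0.55 and by 0.57 in cDC1s and by 0.69 and by 0.94 in cDC2s. Nfkb1, which encodes the NF-κB subunit p50, fell in cDC1s by 0.34 and by 0.22 (adjusted p = 3.01e-07 and 0.000369). The median factor stood at 0.03 and -0.01 in cDC1s and 0.05 and 0.08 in cDC2s.

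Of 12 genes that act on cytokine transcripts, signals or shedding, all were tested. Some restrain cytokines and others, such as Rhbdf2, do not, so the counts mix both kinds. In cDC1s 4 rose and 2 fell with each dying-cell medium, where 7.31% and 8.34% of all genes rose and 5.89% and 8.19% fell. In cDC2s 2 rose and 1 fell with each, where 3.80% and 3.93% of all genes rose and 3.21% and 3.28% fell. Dusp1, a phosphatase of MAP kinases, rose in all 4 comparisons, by 0.45 and 0.37 in cDC1s and 0.41 and 0.51 in cDC2s (adjusted p 6.27e-07 to 0.00435). Zfp36, which encodes the destabilizer of Tnf mRNA tristetraprolin, rose by 0.14 with BimS medium in cDC1s and by 0.30 and 0.38 in cDC2s. Its relative Zfp36l1 fell by 0.50 and by 0.49 in cDC1s and by 0.37 with RIPK3 medium in cDC2s. Rhbdf2, needed to release TNF from the membrane, rose by 0.44 with either medium in cDC1s, and Socs1, an inhibitor of cytokine signaling, by 0.29 and 0.40. Tnfaip3, which encodes the NF-κB inhibitor A20, fell by 0.21 and by 0.26 in cDC1s. Socs3 rose by 0.26 with RIPK3 medium in cDC1s (adjusted p = 0.000467) and fell by 0.30 with BimS medium in cDC2s (adjusted p = 0.0317). The median was 0.09 and 0.10 in cDC1s and 0.06 and 0.14 in cDC2s.

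**Figure D5:**
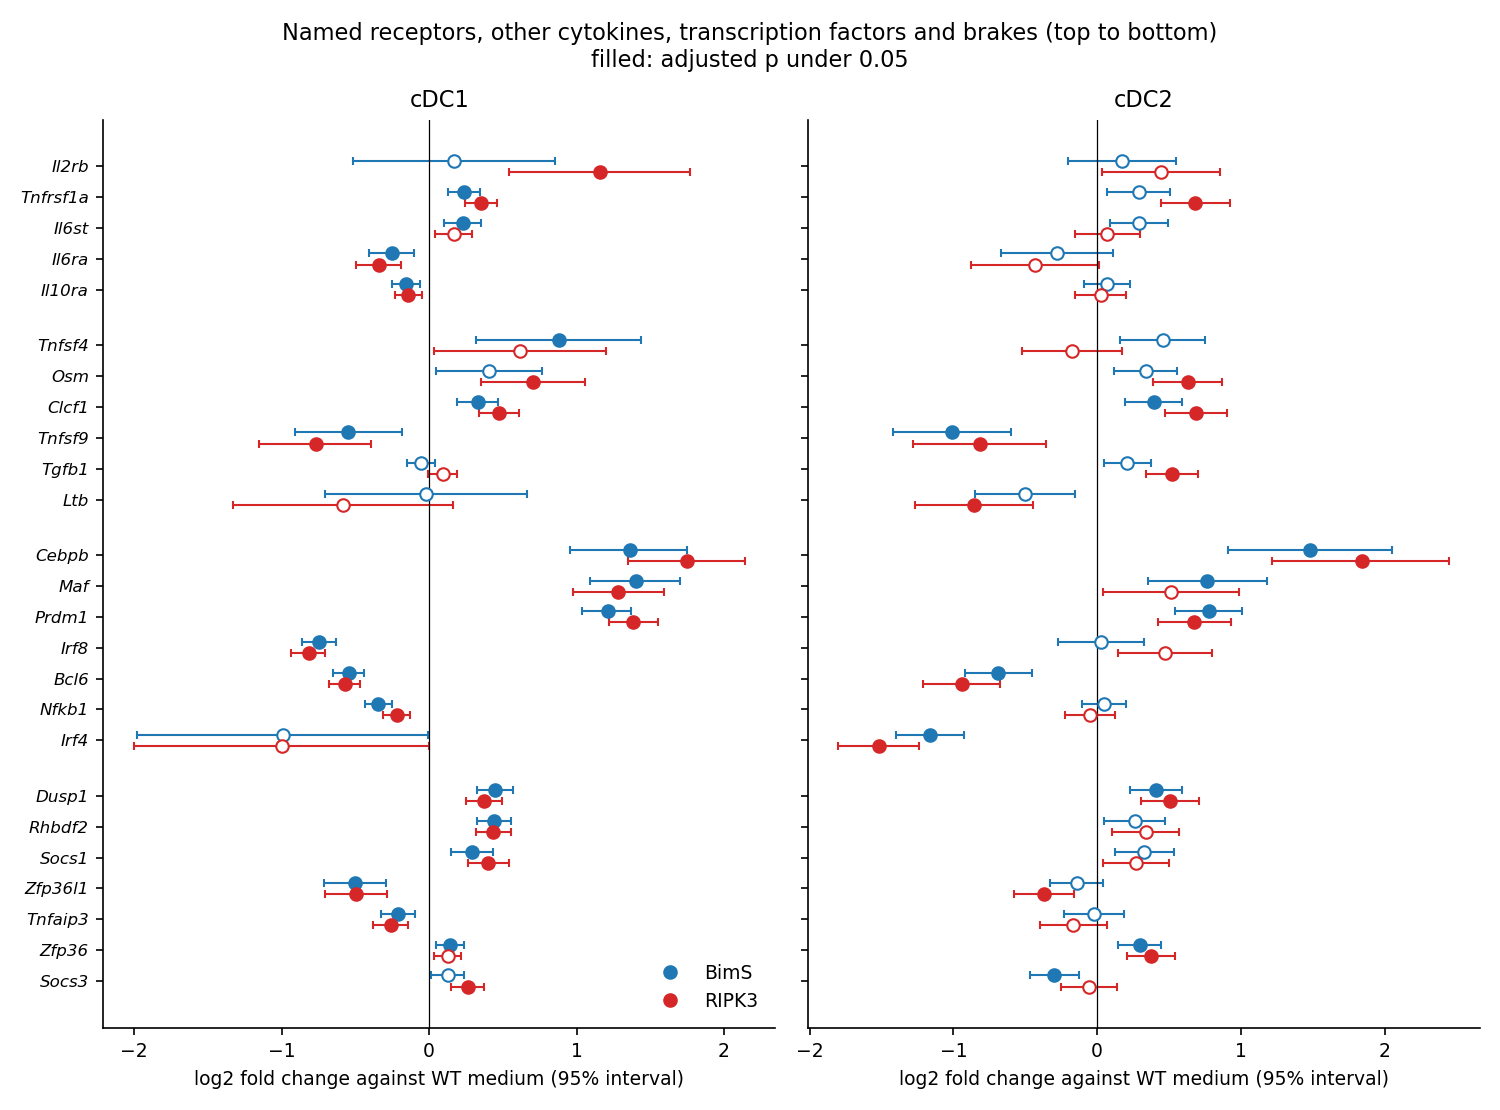
Log2 fold changes with 95% intervals against WT medium, in cDC1s (left) and cDC2s (right), for BimS (blue) and RIPK3 (red), filled where the adjusted p was under 0.05. Shown are the named receptors, other cytokines, transcription factors and genes that act on cytokine transcripts, signals or shedding, titled brakes. Cebpb, Prdm1, Clcf1 and Dusp1 lie right of 0 and Bcl6 and Tnfsf9 left of 0 in both subsets, whereas Irf8 lies left of 0 in cDC1s.

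The genes most like each detected member were sought over the 17 samples among the 7781 genes whose log2 CPM averaged 3 or more, by Pearson's r, as a description. The samples fall into subsets and share media, so r is also given within the 9 cDC1 and the 8 cDC2 samples. The gene most like Il6 was Tgfb1 (r = 0.81, 0.67 in cDC1s and 0.86 in cDC2s), followed by Csnk1g3 (0.80, 0.95 and 0.51). For Tnf they were Acp1 (0.76, 0.91 and 0.90) and Mrpl30 (0.67, 0.84 and 0.54), and for Ebi3 they were Ascc1 (0.95, 0.84 and 0.97) and Eef1d (0.94, 0.50 and 0.94). For Il12b they were Gas2l1 (0.94, 0.48 and 0.78) and Tmco3 (0.93, 0.41 and 0.85). For Il15 they were Ifi205 (0.99, -0.21 and 0.88) and Rasgrp3 (0.99, -0.68 and 0.89), a likeness that did not extend within cDC1s. Among the detected members themselves, Il6 and Il15 had the most negative r within both subsets (-0.69 in cDC1s and -0.76 in cDC2s). These r include the differences between media, and Il15 in cDC2s had only 6 to 20 reads per library.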

How the data were processed

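The deposited table holds read counts per gene, raw output of the authors' pipeline of SeqPurge, STAR 2.7.10a on GRCm39 and gensum. A second deposited table of log2 values, the same counts scaled by their total, was not used. Of the 31239 lines of the count table, 148 without a gene identifier (0.0258% to 0.0366% of the counts) were left out. Symbols, coordinates and exon lengths came from GENCODE M39. Differences were tested in R 4.3.3 with edgeR 4.0.16 (quasi-likelihood, robust, TMM) on genes read in 50% or more of the libraries fitted, 19513 in cDC1s and 19239 in cDC2s, with Benjamini-Hochberg adjustment over all of them and a threshold of 0.05. Each subset was fitted alone, and all 17 samples together for interactions and subsets. Adjusted p-values come from edgeR where no tool is named. The procedure was tested on simulated data, where 200 of 200 genes changed by 1 on the log2 scale were recovered for BimS against WT in either subset, 190 of 200 for the interaction and 200 of 200 across subsets, with 1.48% (cDC1s), 3.85% (cDC2s), 2.06% and 6.54% of the calls false. The simulation gave all genes the same spread, changed only well-read genes and held no effect shared by replicates. It therefore does not measure power for smaller changes or for genes that varied more.

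Members and gene lists were chosen with earlier results of these data known. Named genes were all members, and from each further list up to 3 rises and 3 falls per subset among genes called against WT medium. Other genes, such as Cd14 and Il12rb2, were named after their values were seen. Alternatives were RLE factors, DESeq2 1.42.0, limma 3.58.1 on log2 counts with a pseudocount of 1 or on log2 CPM with a prior count of 2, filterByExpr, no filter, unscaled CPM, a replicate block and each sample left out. The labels' replicate numbers pair the samples: within a subset, 16 of 16 same-numbered pairs had correlated deviations above 0.1 (median 0.355), against 4 of 32 others (median -0.188). The sources do not say that replicates were separate mice, so p-values measure the spread between these samples.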

Additional observations from a re-analysis of the deposited data

Results flagged for a closer look

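The response of Il6 to debris differed between the subsets. The test of the difference gave -0.72 on the log2 scale for BimS against WT (edgeR adjusted p = 0.000826) and -0.72 for RIPK3 against WT (adjusted p = 0.00116). Both values share the WT groups, where cDC1s exceeded cDC2s by 0.71, so they are not separate results. For RIPK3 against BimS the difference was 0.00 (95% interval -0.25 to 0.26). Il6 was lower with BimS medium than with WT medium in all 3 cDC1 samples and higher in all 3 cDC2 samples. With RIPK3 medium both cDC2 samples exceeded every WT sample, and the cDC1 samples overlapped with theirs. No group held 4 or more samples, so single samples were not tested as outliers.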

How the results depend on the processing

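Depth limits Il12a, Il27, Il23a and Il10, whose fold changes are not given. Il10 was called between subsets across media, higher in cDC1s, without replicate 1 of BimS in cDC2s. With the replicate block, 3 genes instead of 2 were called for BimS against WT in cDC1s (Il12b in addition), 1 instead of 0 for RIPK3 against WT in cDC1s (Il12b), 2 instead of 1 for RIPK3 against BimS in cDC1s (Il12b and Il6) and 1 instead of 0 for BimS against WT in cDC2s (Il6), while the call of Il6 between subsets across media was lost (0.25, adjusted p = 0.076) and Ebi3 was called between subsets with WT medium (0.23, adjusted p = 0.0195). RLE also lost that call of Il6 (0.25, adjusted p = 0.0516), and RLE, DESeq2, filterByExpr and limma on unnormalized counts also made that call of Ebi3 (adjusted p 0.0154 to 0.0454). The block changed no other call of a member. Across all genes it raised the calls for RIPK3 against BimS from 810 to 1730 in cDC1s and from 73 to 2755 in cDC2s. DESeq2 and limma on unnormalized counts also called 2 for RIPK3 against BimS in cDC1s. For RIPK3 against BimS in cDC2s, 0 were called by either limma fit and by filterByExpr. Limma on unnormalized counts called 0 for the interaction of BimS against WT (Il6 -0.69, adjusted p = 0.051), called Il15 (1.27, 0.0194) and not Il6 (-0.65, 0.095) for that of RIPK3 against WT, called Il12b (-0.45, 0.0171) and not Il15 (0.29, 0.201) for BimS against WT in cDC1s, and limma on log2 CPM called 2 for the interaction of RIPK3 against WT (Il6 and Il15). Limma on unnormalized counts also called Tnf between subsets across media (0.32, adjusted p = 0.0362), where the median of all genes was 0.201. The cause of these shifts was not tested. Leaving out 1 sample at a time gave 1 to 3 calls for BimS against WT and 1 to 2 for RIPK3 against BimS in cDC1s, and 0 to 1 for RIPK3 against BimS in cDC2s.

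Signs turned for differences that had not passed the test. Without normalization limma gave -0.106 for Il6 (RIPK3 against WT, cDC1s), -0.0747 for Ebi3 (RIPK3 against BimS, cDC1s), and -0.117, -0.16 and -0.043 for Il12b in the 3 comparisons of cDC2s, and on log2 CPM -0.0455 for Il12b (BimS against WT, cDC2s). Ebi3 for RIPK3 against WT in cDC2s was 0.0197 with RLE, 0.0194 with DESeq2, 0.011 with filterByExpr, 0.0123 without a filter and 0.0972 with the block. Leaving out 1 sample, the ranges in cDC1s were -0.0427 to 0.0659 for Il6 (RIPK3 against WT), -0.0263 to 0.0322 for Ebi3 (RIPK3 against BimS), and -0.185 to 0.101, -0.0478 to 0.265 and -0.00796 to 0.304 for Tnf (BimS against WT, RIPK3 against WT, RIPK3 against BimS). In cDC2s they were -0.20 to 0.33, -0.49 to 0.45 and -0.49 to 0.44 for Il12b, -0.289 to 0.0408, -0.476 to 0.125 and -0.36 to 0.25 for Tnf in the same order, and -0.12 to 0.11 for Ebi3 (RIPK3 against WT). For the interactions they were -0.075 to 0.858 for Il12b (RIPK3 against WT) and -0.13 to 0.15 for Il6 (RIPK3 against BimS). The call of Il6 between subsets across media (0.24, adjusted p = 0.0492) was lost without any 1 of 13 of the 17 samples. Of 849 values of single genes under other settings, 757 kept direction and side of the threshold.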
